A study of Homo sapiens with 4 samples.

Results

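AP-1 is the transcription factor complex whose subunits are encoded by the FOS, JUN, ATF and BATF genes, and 10 of these genes were examined among the 19970 protein-coding genes on chromosomes 1 to 22 and X. They were chosen by name: FOS, FOSB, FOSL1 and FOSL2 of the FOS family, JUN, JUNB and JUND of the JUN family, and ATF3, BATF and BATF3. For each gene, peaks of H3K27ac, the histone mark of active promoters and enhancers, were collected within 1 kb of the canonical start (the start of the transcript that the GENCODE annotation treats as the gene's main one), which are called promoter peaks, and within 100 kb of the gene body. H3K27ac ChIP-seq peak lists came from 2 triple-negative breast cancer cell lines of mesenchymal character, MDA-MB-231 and Hs578T, with 2 replicate libraries each. Every library, in both lines, was made from cells that were starved for 8 h, given the cytokine TWEAK at 10 ng/ml for 48 h, and then kept without TWEAK for 72 h according to the labels, whereas the study's text gives a longer wash-off. Libraries without TWEAK, or with TWEAK still present, were not analysed here. The values therefore describe cells after TWEAK removal and carry no measure of its effect.

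AP-1 proteins bind DNA as pairs held together by a leucine zipper, and a basic stretch beside the zipper contacts the DNA. FOS proteins cannot pair with themselves and need a JUN partner, whereas JUN proteins pair with FOS, ATF and BATF proteins and with one another. Most such pairs read the sequence TGANTCA, and pairs that contain an ATF protein also read TGACGTCA. FOS, FOSB, JUN, JUNB and ATF3 are classic immediate-early genes that growth factors, cytokines and stress switch on within minutes, while FOSL1 and FOSL2, which encode FRA1 and FRA2, are more sustained and FOSL1 is well known as an abundant subunit of mesenchymal breast cancer cells. BATF and BATF3 are best known from lymphocytes and dendritic cells.

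In number of peaks, 1 list fell far short of the rest. Only 209 peaks were in the list labelled MDA-MB-231 replicate 1, against 43353 in MDA-MB-231 replicate 2, 46330 in Hs578T replicate 1 and 44920 in Hs578T replicate 2. The small list had no peak within 100 kb of any of the 10 genes, and all values below come from the 3 large lists unless it is named. Per list, promoters of mesenchymal markers (VIM, CD44, AXL, ZEB1, CAV1) were marked for 5 of 5 genes in each large list and those of luminal markers (ESR1, PGR, GATA3, FOXA1, ESRP1) for 0 of 5, the leukocyte markers PTPRC and CD3E were unmarked, and of the endothelial markers CDH5 was unmarked while PECAM1 was marked in 2 of the large lists, MDA-MB-231 replicate 2 and Hs578T replicate 1. Fold enrichment, the third value given for each peak beside its position and width, is the authors' ratio of signal over local background. It was made library by library, with subtraction of input. Its size is therefore compared only within a list and its rank between lists. Sequencing depth is unknown. With 2 libraries per line an exact two-sided permutation test over the 3 possible splits gives a p of at least 0.333 and cannot reach 0.05, so no test between lines was made and differences between lists are described without a p-value.

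The promoter sequences are shown first, since they include genes with strong and genes with weak promoter peaks. The RefSeq promoter table (GRCh38.p14, from 250 bases before to 50 bases after the start) matched 8 of the 10 genes. FOSL1 and BATF3 were not among them, and the 2 ATF3 entries belong to other starts of that gene, which no peak covered. The other 7 sequences start from the canonical start used here and are written 5′ to 3′ on the strand of the gene, with matches to TGANTCA, TGACGTCA, TGACNTCA or TATAAA in capitals. FOS lies at chr14:75278578-75278877 (plus strand), FOSB at chr19:45467746-45468045 (plus), JUNB at chr19:12791236-12791535 (plus), FOSL2 at chr2:28392608-28392907 (plus), JUN at chr1:58783998-58784297 (minus), JUND at chr19:18281573-18281872 (minus) and BATF at chr14:75522219-75522518 (plus).
FOS promoter: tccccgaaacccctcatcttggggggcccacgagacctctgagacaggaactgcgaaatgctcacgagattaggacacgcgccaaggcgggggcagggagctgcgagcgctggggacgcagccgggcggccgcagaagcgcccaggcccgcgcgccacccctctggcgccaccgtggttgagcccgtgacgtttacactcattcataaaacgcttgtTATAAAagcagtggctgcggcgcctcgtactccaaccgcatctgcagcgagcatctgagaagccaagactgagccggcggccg
FOSB promoter: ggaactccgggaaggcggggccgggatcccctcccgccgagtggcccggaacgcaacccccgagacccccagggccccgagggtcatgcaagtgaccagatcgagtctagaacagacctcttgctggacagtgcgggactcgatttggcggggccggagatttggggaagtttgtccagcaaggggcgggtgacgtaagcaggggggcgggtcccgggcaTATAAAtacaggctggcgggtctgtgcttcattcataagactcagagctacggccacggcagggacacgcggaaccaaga
JUNB promoter: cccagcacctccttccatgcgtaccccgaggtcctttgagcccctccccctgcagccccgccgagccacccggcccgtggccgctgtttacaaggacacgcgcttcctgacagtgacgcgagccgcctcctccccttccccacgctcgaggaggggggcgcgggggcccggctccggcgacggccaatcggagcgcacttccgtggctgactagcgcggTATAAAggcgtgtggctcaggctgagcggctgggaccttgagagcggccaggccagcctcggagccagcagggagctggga
FOSL2 promoter: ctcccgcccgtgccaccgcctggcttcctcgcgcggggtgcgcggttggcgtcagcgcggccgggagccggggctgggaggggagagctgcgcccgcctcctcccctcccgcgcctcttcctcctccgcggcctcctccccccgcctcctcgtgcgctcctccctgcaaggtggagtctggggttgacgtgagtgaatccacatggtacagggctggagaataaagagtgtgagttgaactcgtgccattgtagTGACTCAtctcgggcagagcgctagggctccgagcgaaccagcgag
JUN promoter: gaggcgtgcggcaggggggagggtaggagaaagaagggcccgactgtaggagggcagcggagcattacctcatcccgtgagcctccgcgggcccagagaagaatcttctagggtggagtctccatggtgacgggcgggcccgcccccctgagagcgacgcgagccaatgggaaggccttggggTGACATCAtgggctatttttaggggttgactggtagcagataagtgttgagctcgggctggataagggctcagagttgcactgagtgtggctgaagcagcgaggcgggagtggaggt
JUND promoter: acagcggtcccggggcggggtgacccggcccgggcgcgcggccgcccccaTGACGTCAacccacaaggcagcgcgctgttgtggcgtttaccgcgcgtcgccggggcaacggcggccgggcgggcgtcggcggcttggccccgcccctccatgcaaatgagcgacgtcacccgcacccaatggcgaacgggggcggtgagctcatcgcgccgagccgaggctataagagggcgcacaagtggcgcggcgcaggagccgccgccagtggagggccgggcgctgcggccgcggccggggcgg
BATF promoter: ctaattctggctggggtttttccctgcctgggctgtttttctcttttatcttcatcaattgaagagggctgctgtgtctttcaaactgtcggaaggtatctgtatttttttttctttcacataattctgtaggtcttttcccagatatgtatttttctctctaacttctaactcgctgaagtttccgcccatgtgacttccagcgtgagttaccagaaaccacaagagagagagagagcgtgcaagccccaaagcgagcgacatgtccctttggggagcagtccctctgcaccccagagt

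TATAAA, the core of the TATA box that positions RNA polymerase II, was found upstream of FOS, FOSB and JUNB, with its first base 33, 30 and 31 bases before the start. All 3 are immediate-early genes, but JUN, which is another, held no TATAAA, and the promoter at the canonical ATF3 start was not available. TATAAA on either strand was present in 11.5% of 34961 promoters of the same length on chromosomes 1 to 22 and X. FOSL2 held a TGANTCA match, TGACTCA, from base 5 of the transcript, and 7.68% of all promoters held TGANTCA, which reads the same on both strands. JUND held TGACGTCA 200 bases before its start, as did 1.85% of promoters on either strand. JUN held TGACATCA 67 bases before its start. That match belongs to the pattern TGACNTCA, which includes TGACGTCA, was searched on both strands after the sequences had been seen and occurred in 7.73% of promoters. The CArG box, the binding sequence of the serum response factor, was in none of the 7 windows and in 1.30% of all promoters. GC content ranged from 62.0% in JUN to 77.0% in JUND for 6 of the genes, against a median of 58.7% over all promoters, and was 46.0% in BATF. BATF also held the fewest CpG dinucleotides, 7, where JUN held 16 and JUND 49 and the median promoter 14. These matches describe letters in a window and do not show that a protein bound there.

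Nearly all of the genes carried H3K27ac at their start. A promoter peak was present for 10 of 10 genes in MDA-MB-231 replicate 2, for 10 of 10 in Hs578T replicate 1, and for 9 of 10 in Hs578T replicate 2, where BATF3 had none. Of all protein-coding genes, 58.1%, 58.2% and 56.4% had one in those lists, and 55.6% had one in all 3. In MDA-MB-231 replicate 1, 0 of 10 genes and 0.0601% of all genes were marked. The number per line was therefore 5 ± 7.07 (SD, n = 2) in MDA-MB-231, or 10 without replicate 1, and 9.5 ± 0.707 (SD, n = 2) in Hs578T. When only peaks with a q-value (the authors' adjusted p-value) of at most 0.01 were kept, the 3 large lists marked 9, 10 and 8 genes. The BATF peak had −log10 q of 1.75, 2.01 and 1.25, so it met that limit in Hs578T replicate 1 alone.

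What set the genes apart from one another was the size of the promoter peak, which ran from percentile 2.36 (BATF) to 99.96 (FOSL1) of all promoter peak widths in MDA-MB-231 replicate 2. Over all marked genes the median width was 1792 bp in MDA-MB-231 replicate 2, 1897 bp in Hs578T replicate 1 and 1804 bp in Hs578T replicate 2. All FOS and JUN subunit genes and ATF3 lay above these medians, and BATF and BATF3 lay below them in every list in which they had a peak.

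**Figure D1:**
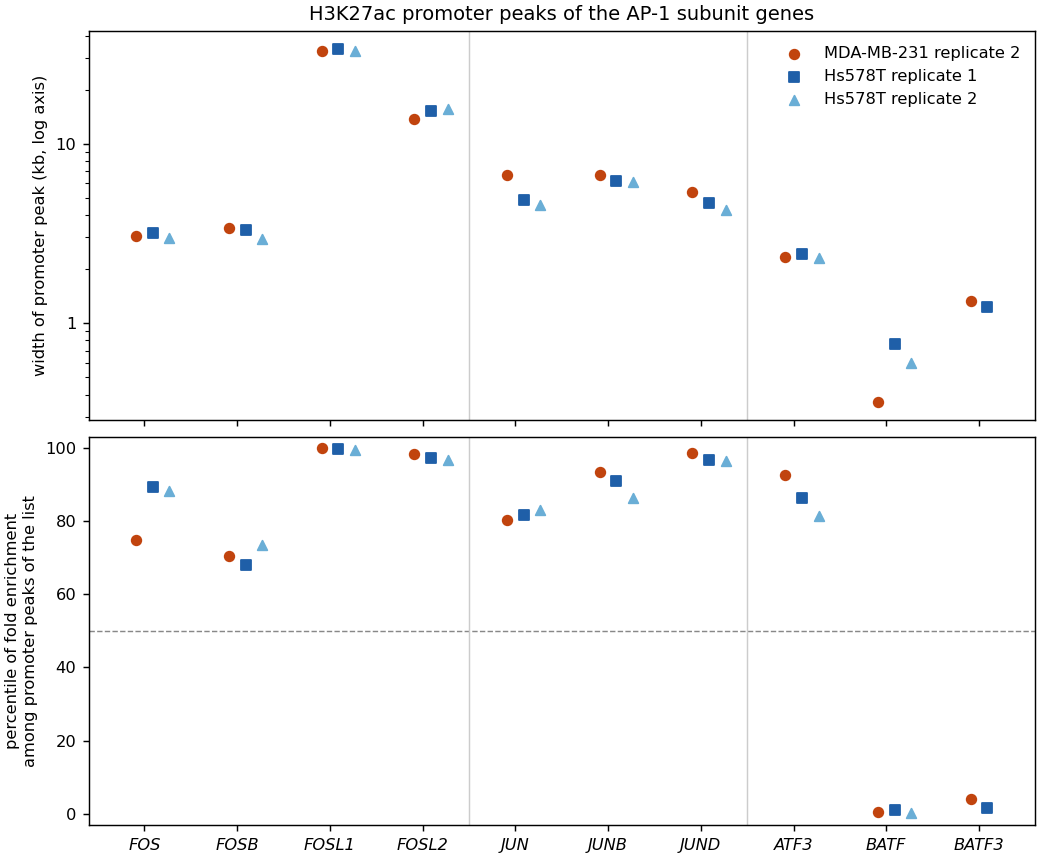
Promoter peaks of the 10 AP-1 subunit genes in the 3 large lists, with the width in kb on a log axis (top) and the percentile of fold enrichment among all promoter peaks of the same list (bottom, dashed line at 50). Grey lines separate FOS, JUN, and ATF and BATF genes. FOSL1 is widest at 32.7 to 33.7 kb, and BATF and BATF3 lie at the bottom of the lower panel, with no BATF3 point for Hs578T replicate 2.

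Among FOS subunit genes, FOSL1 stood out. Its peak spanned 32955 bp in MDA-MB-231 replicate 2, 33692 bp in Hs578T replicate 1 and 32702 bp in Hs578T replicate 2, where it ranked 7th, 15th and 7th in width among all peaks of the list. Its fold enrichment was 38.1, 31.7 and 23.4 in the same order, at percentiles 99.8, 99.6 and 99.3 of promoter peaks, meaning that this percentage of marked genes had a lower value. The peak covered 100% of the 8525 bp gene (chr11:65892049-65900573, minus strand), and reached 19952, 20813 and 19700 bp upstream and 13002, 12878 and 13001 bp downstream of the start. It also took in the starts of FIBP, CCDC85B, C11orf68 and DRAP1 in every large list, so its width cannot be assigned to FOSL1 alone. No other AP-1 subunit gene shared its promoter peak with the canonical start of another protein-coding gene.

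FOSL2 was the next widest, at 13734, 15276 and 15632 bp, and its fold enrichment of 26.9, 23.1 and 17.7 lay at percentiles 98.2, 97.1 and 96.6. The peak reached about as far upstream of the start (6925, 6939 and 6964 bp) as downstream (6808, 8336 and 8667 bp). Beyond a gap, further peaks continued through the 24870 bp gene, so that 75.0%, 95.3% and 91.3% of the gene body was covered. The first of these inner peaks spanned from 7727 to 18140 bp after the start in MDA-MB-231 replicate 2, from 9508 to 25099 bp in Hs578T replicate 1 and from 9989 to 19114 bp in Hs578T replicate 2. FOSL1 and FOSL2 were thus the only members with a promoter peak above 8 kb in these 3 lists.

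FOS and FOSB, the fast-responding genes of the family, had narrower peaks that lay on opposite sides of the start. The FOS peak was 3059, 3189 and 2972 bp wide with fold enrichment of 13.4, 16.8 and 13.1, at percentiles 74.9, 89.3 and 88.3. It began 2451, 2504 and 2492 bp before the start and ended only 607, 684 and 479 bp after it, so that 80.1%, 78.5% and 83.8% of the peak was upstream. Among promoter peaks that contain the start of their gene the median upstream share was 46.1%, 46.3% and 46.9%, and FOS was at percentiles 95.1, 93.9 and 96.5. The FOS gene body itself was covered over 17.9%, 20.2% and 14.2% of its length. FOSB had peaks of 3370, 3287 and 2925 bp, with fold enrichment of 12.5, 10.7 and 9.71 at percentiles 70.5, 67.9 and 73.3, and only 21.2%, 23.5% and 25.1% of the peak was upstream of its start.

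The 3 JUN genes were marked more evenly. JUND, an intronless gene that is expressed in many resting cells, had the highest fold enrichment of the family in every large list, 27.9, 22.5 and 17.5, at percentiles 98.6, 96.7 and 96.4. JUNB followed with 20.7, 17.5 and 12.5 at percentiles 93.5, 90.9 and 86.3, and JUN with 14.8, 13.9 and 11.7 at percentiles 80.2, 81.5 and 83.0. Widths were 5374, 4665 and 4276 bp for JUND, 6700, 6213 and 6118 bp for JUNB, and 6663, 4833 and 4577 bp for JUN. JUNB and JUND, both shorter than 2 kb, were covered over 100% of the gene body in all 3 lists, and the 7204 bp JUN gene over 59.6%, 43.7% and 45.4%. Over marked genes of at most 10 kb the median covered share of the gene body was 22.8%, 25.3% and 23.1%, so that all 3 JUN genes lay above it while FOS lay below it in every large list.

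In base pairs, JUN had the largest difference in promoter peak width between MDA-MB-231 replicate 2 and the Hs578T mean among the 9 genes marked in all 3 lists. In MDA-MB-231 replicate 2 its peak ran 4295 bp into the gene, against 2593 and 2466 bp in the Hs578T lists. In both Hs578T lists a separate weak peak followed, from 3586 to 4139 bp after the start with fold enrichment 2.53 in replicate 1 and from 3349 to 4151 bp with 2.77 in replicate 2. The stretch marked as 1 peak in MDA-MB-231 replicate 2 was therefore called as 2 peaks in Hs578T, and the difference of 1958 bp in width (Hs578T mean 4705 ± 181 bp, SD, n = 2) includes that change in calling.

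ATF3, BATF and BATF3 did not behave as a group. ATF3, a stress-induced gene whose product can repress as well as activate, had a compact peak of 2349, 2441 and 2313 bp with high fold enrichment of 20.1, 15.4 and 11.3, at percentiles 92.6, 86.2 and 81.2. Of its annotated starts, those 43427 bp before and 6261 and 6417 bp after the canonical start had no peak within 1 kb in any list. For the start 43427 bp before, this depends on the window. Just outside that 1 kb, a peak downstream of it had fold enrichment of 10.6, 14.3 and 10.9 in the 3 large lists. BATF had a peak of 364, 765 and 601 bp with fold enrichment of 2.87, 2.65 and 2.60, at percentiles 0.608, 0.950 and 0.324 of promoter peaks. BATF3 had 1324 and 1224 bp with 3.50 and 2.79 at percentiles 4.05 and 1.72 in the first 2 of the large lists and none in Hs578T replicate 2, where the nearest peak lay 21456 bp from its start. BATF and BATF3 were thus marked at the weak end of the lists, and ATF3 near the FOS and JUN genes.

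**Figure D2:**
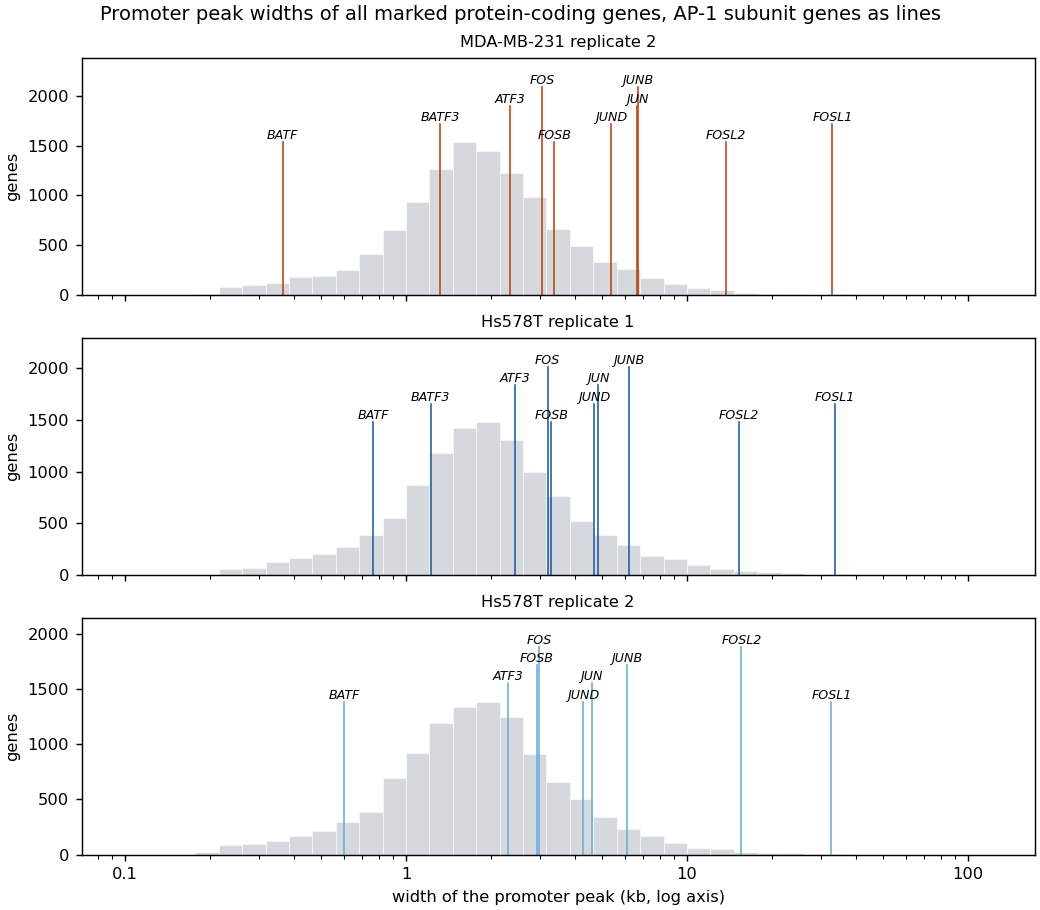
Number of marked protein-coding genes by width of their promoter peak (grey bars, log axis in kb), one panel for each of the 3 large lists, with the AP-1 subunit genes as coloured lines whose heights differ only to keep the names apart. FOSL1 and FOSL2 lie in the right tail, the JUN genes between 4.28 and 6.70 kb, and BATF in the left tail.

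By subfamily, the median percentile of promoter fold enrichment was 86.6, 93.2 and 92.4 for FOS genes, 93.5, 90.9 and 86.3 for JUN genes, and 4.05, 1.72 and 40.8 for ATF and BATF genes, where the last value rests on the 2 genes marked in Hs578T replicate 2. The order of FOS and JUN genes changed between lists. Over all marked members the median was 86.4 in MDA-MB-231 replicate 2, 87.8 in Hs578T replicate 1 and 86.3 in Hs578T replicate 2, where all marked genes have a median of 50 by construction. The subfamilies hold 4, 3 and 3 genes, and their ranges overlapped through ATF3.

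Compared side by side, the promoter peak in MDA-MB-231 replicate 2 was wider than in both Hs578T lists for 4 of the 9 genes marked in all 3, FOSB and the 3 JUN genes, and narrower than in both for 2, FOSL2 and BATF. Of the 11112 genes marked in all 3 lists, 30.1% were wider and 35.8% narrower in that sense, so such an arrangement was common. For JUNB the difference from the Hs578T mean of 6166 ± 67.2 bp (SD, n = 2) was 534.5 bp, and for JUND 903.5 bp from 4471 ± 275 bp. MDA-MB-231 is represented here by a single list, and replicate 1 gave no width.

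The genes also differed in how much of their surroundings was marked. Bases under peaks were summed over a window that runs from 100 kb before the gene body to 100 kb after it. FOSB had the most, 48073 bp in MDA-MB-231 replicate 2, 58263 bp in Hs578T replicate 1 and 49880 bp in Hs578T replicate 2, in 19, 22 and 20 peaks. FOSL1 had 42204, 43648 and 42949 bp in 8, 9 and 8 peaks, and FOSL2 42074, 48397 and 46365 bp in 15, 13 and 14 peaks. FOS had only 8860, 9670 and 8216 bp in 4, 5 and 4 peaks. The gene with the most and the gene with the least covered sequence were therefore both FOS family genes in every large list.

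JUN genes lay in between. JUN had 30619, 30002 and 29414 bp in 10, 11 and 11 peaks, JUND 30150, 34352 and 28034 bp in 17, 14 and 14 peaks, and JUNB 23688, 25075 and 20937 bp in 12, 10 and 11 peaks. JUN and JUND did not separate from each other, since their order changed between lists. ATF3 had 20210, 19482 and 17308 bp, BATF3 13015, 12451 and 13020 bp, and BATF 10441, 10578 and 11435 bp. The windows of ATF3 and BATF3, whose gene bodies lie 65639 bp apart on chromosome 1, overlap and had 7, 7 and 6 peaks in common.

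**Figure D3:**
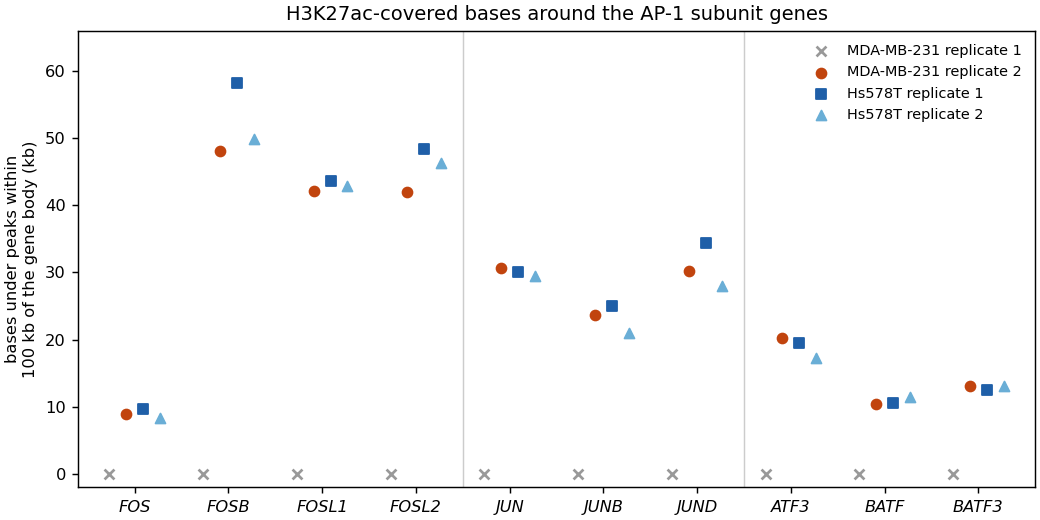
Bases under H3K27ac peaks, in kb, within 100 kb of the gene body of each AP-1 subunit gene, one symbol per list. FOSB, FOSL1 and FOSL2 lie above 42 kb in the 3 large lists and FOS below 10 kb, while MDA-MB-231 replicate 1 is at 0 for every gene.

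As a share of the window, FOSB was covered over 23.2%, 28.1% and 24.1%, at percentiles 98.8, 99.1 and 98.9 of all protein-coding genes, whereas FOS was covered over 4.36%, 4.75% and 4.04%, at percentiles 53.7, 53.3 and 50.4. The median gene was covered over 3.96% to 4.37% of its window. FOSL1 was at percentiles 97.9, 97.4 and 98.1 and FOSL2 at 97.3, 97.7 and 98.1, so 3 of the 4 FOS genes lay in the densest few percent of gene surroundings. Gene density differs between these windows. The FOSB, FOSL1, JUNB and JUND windows hold 8, 12, 15 and 9 canonical starts of protein-coding genes, the members included, against 1 for FOS and 2 each for FOSL2 and JUN, and its part in the covered bases was not tested.

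Median covered bases were 42139, 46022.5 and 44657 bp over FOS genes, 30150, 30002 and 28034 bp over JUN genes, and 13015, 12451 and 13020 bp over ATF and BATF genes, in the 3 large lists. In Hs578T that is 45340 ± 966, 29018 ± 1392 and 12736 ± 402 bp (SD, n = 2). In MDA-MB-231 the means over both replicates were 21069.5 ± 29797, 15075 ± 21319 and 6507.5 ± 9203 bp, because replicate 1 contributed 0. The order FOS, JUN, then ATF and BATF was the same in each large list, yet FOS itself lay below every JUN, ATF and BATF gene. Relative to both Hs578T lists, MDA-MB-231 replicate 2 had more covered bases for 2 of 10 genes, JUN and ATF3, and fewer for 4 of 10, FOSB, FOSL1, FOSL2 and BATF, against 17.8% and 43.8% of all genes.

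**Figure D4:**
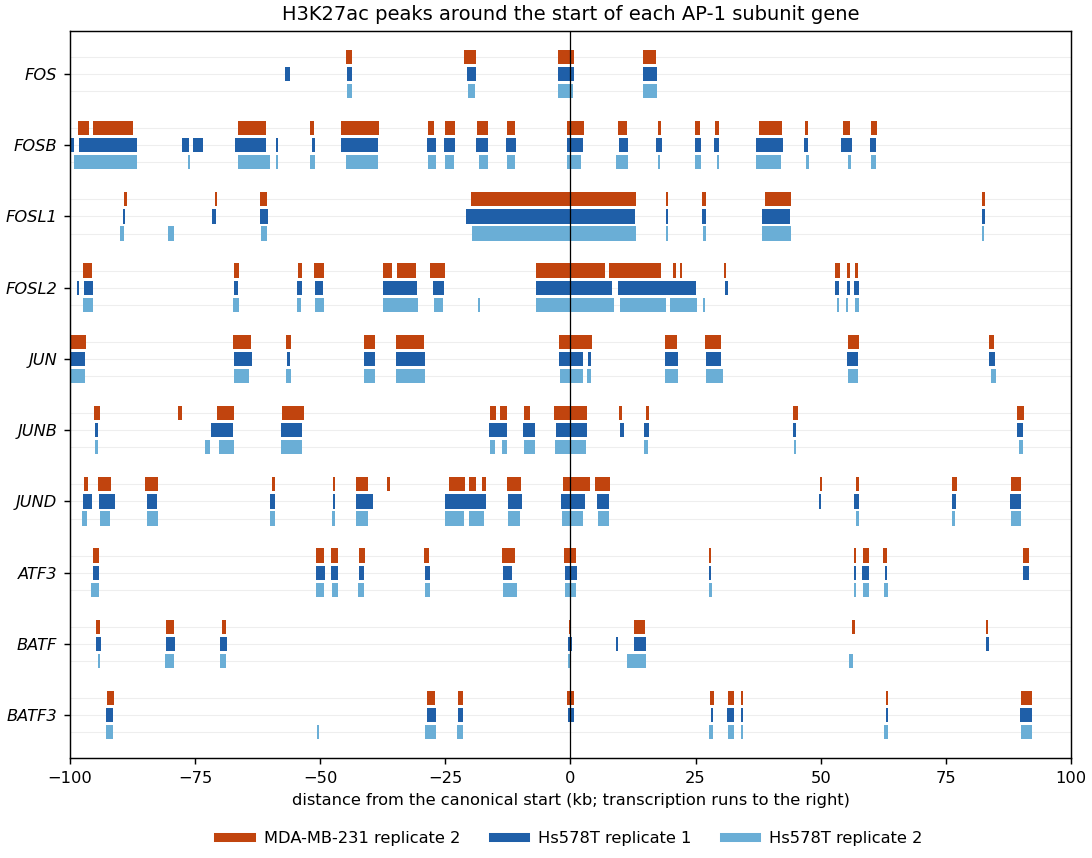
Peaks within 100 kb of the start of each AP-1 subunit gene, one row per large list, with distance from the canonical start in kb and transcription running to the right. Peaks sit at like distances in the 3 lists for most positions, FOSL1 is crossed by 1 broad peak, and FOSB, JUN and JUND are flanked by several peaks on either side.

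Much of this sequence lay away from canonical starts. Peaks over 2.5 kb from the canonical start of every annotated gene, coding and non-coding alike, are called distal. Other annotated starts of a gene were not considered, so a distal peak may lie near one of them. FOSL2 had 11, 9 and 11 distal peaks that covered 26810, 30906 and 29614 bp, more than its promoter peak. These include the inner peaks of its own gene, of which the first was 10414, 15592 and 9126 bp wide. FOSB had 12, 15 and 13 with 16279, 22673 and 15982 bp, JUND 10, 7 and 7 with 15156, 18547 and 15156 bp, and JUN 6, 7 and 7 with 13866, 14482 and 14817 bp. At the other end, FOSL1 had 3 distal peaks in each list with 1576, 1659 and 2337 bp, JUNB had 1, 0 and 1, and FOS had 1, 2 and 1. FOSL1 and FOSL2, which shared very broad promoter marking, thus differed in their distal peaks as called. That difference depends in part on where peaks were split. Merged over the 3 large lists, the region at the start spanned 33816 bp for FOSL1 and 32159 bp for FOSL2. The broad FOSL1 peak contains canonical starts, so none of it counted as distal.

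At some genes a neighbouring peak had higher fold enrichment than the promoter itself. For JUN it lay 29360, 28977 and 29023 bp upstream, with fold enrichment of 26.7, 29.2 and 21.2, which was 1.81, 2.11 and 1.81 times that of the JUN promoter peak in the same list and at percentiles 98.6, 99.2 and 98.3 of all peaks. It overlaps the long non-coding gene LINC01135 and lies within 2.5 kb of the start of another non-coding gene (ENSG00000272226), so it is not counted as distal. For BATF the strongest neighbour was inside the gene, in an intron, 12711, 12683 and 11315 bp after the start, with fold enrichment of 13.9, 14.6 and 13.5, or 4.84, 5.52 and 5.19 times that of the promoter peak. BATF was thus weak at its promoter and well marked within its own intron in all 3 lists.

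FOSB also had stronger neighbours than its promoter, at 2.16, 2.14 and 2.08 times. These lay near other genes, 38454 and 38544 bp upstream by ERCC1 in the Hs578T lists and 87499 bp upstream by ERCC2 in MDA-MB-231 replicate 2. For FOS the strongest neighbour was 14571, 14414 and 14534 bp after the start at the non-coding gene LINC01220, with fold enrichment of 13.0, 12.7 and 12.2, which was 0.965, 0.756 and 0.930 times that of the promoter. For FOSL1, FOSL2, JUNB and JUND the promoter peak was the strongest of the window in each list, with the strongest neighbour at 0.471 to 0.882 times its fold enrichment. ATF3 had neighbours nearly as strong as its promoter, at 0.867 and 0.993 times in MDA-MB-231 replicate 2 and Hs578T replicate 1, both in its own intron, and at 1.27 times in Hs578T replicate 2. The strongest neighbour of BATF3 was the ATF3 promoter peak, at 5.73 and 5.53 times its own in MDA-MB-231 replicate 2 and Hs578T replicate 1. In Hs578T replicate 2 BATF3 had no promoter peak to compare.

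The positions were largely common to the lists. Peaks of the 3 large lists were merged into 114 regions around the 10 genes, of which 92 were called in all 3, 10 in 2 and 12 in 1. That is 80.7% in all 3, against 74.8% of 50576 merged regions genome-wide. Around JUN, 10 of 10 regions were called in all 3 lists, and around FOSB 18 of 21. Regions missing from a list were weak, with fold enrichment of at most 3.66 in the lists that had them. The exception was 1 at the far edge of the FOSL1 window by BANF1, with 8.50 in Hs578T replicate 1. Only peaks that reached into a window were merged. A region at its edge can therefore seem missing from a list whose peak began just outside, which does not arise genome-wide. Around these genes 2 regions, both at FOSB, were called only in the Hs578T lists together, and 2, at JUNB and JUND, only in MDA-MB-231 replicate 2. All of them were weak, with fold enrichment of at most 3.10. The genome-wide share of such regions was not counted and MDA-MB-231 rests on a single list, so they are not read as a difference between lines.

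Since AP-1 proteins bind TGANTCA, the peaks around their own genes were searched for it. Windows of 61 bases from the hg38 plus strand are shown, with TGANTCA in capitals. They come from the distal region with the highest fold enrichment around each gene, where it held the sequence within a peak of all 3 lists. These regions are the most enriched ones away from canonical starts. BATF3 shares the ATF3 region, the strongest distal region of FOSL1 held no match, and JUNB had no distal region called in all 3 lists. For FOSL1, 2 windows inside its broad peak are shown instead, chosen after its width was seen. The FOS window is chr14:75234697-75234757 and lies 44101 bp upstream. The FOSB window is chr19:45456083-45456143, 11883 bp upstream in an intron of ERCC1. The FOSL2 window is chr2:28361093-28361153, 31735 bp upstream and intergenic. The JUN window is chr1:58755486-58755546, 28531 bp downstream of the start in an intron of a non-coding gene (ENSG00000283445). The JUND window is chr19:18301197-18301257, 19605 bp upstream and intergenic. The ATF3 window is chr1:212596486-212596546, 12245 bp before the canonical start and inside an intron of the longer ATF3 transcript. The BATF window is chr14:75535973-75536033, 13534 bp after the start in a BATF intron. The FOSL1 windows are chr11:65897264-65897324 and chr11:65899359-65899419, 3094 and 999 bp after the start in introns of FOSL1.
FOS window: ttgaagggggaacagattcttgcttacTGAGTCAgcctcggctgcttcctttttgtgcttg
FOSB window: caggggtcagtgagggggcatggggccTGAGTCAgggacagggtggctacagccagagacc
FOSL2 window: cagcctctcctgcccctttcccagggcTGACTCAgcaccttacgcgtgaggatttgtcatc
JUN window: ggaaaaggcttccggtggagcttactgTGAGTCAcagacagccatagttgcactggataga
JUND window: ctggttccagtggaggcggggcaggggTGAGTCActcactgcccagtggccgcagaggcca
ATF3 window: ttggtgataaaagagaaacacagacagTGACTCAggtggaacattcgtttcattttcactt
BATF window: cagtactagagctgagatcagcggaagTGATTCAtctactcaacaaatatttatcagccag
FOSL1 window at 3094 bp: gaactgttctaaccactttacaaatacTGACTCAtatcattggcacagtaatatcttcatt
FOSL1 window at 999 bp: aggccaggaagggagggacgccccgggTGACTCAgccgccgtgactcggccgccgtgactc

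The core within these windows was TGAGTCA or its reverse complement TGACTCA, the sequence that FOS and JUN pairs bind best, in all but BATF, which had TGATTCA. The windows were picked for holding TGANTCA, so only its middle base was free to differ. How often each form occurs among the matches of all peaks was not counted. Fold enrichment of the peak that holds the window was 4.37, 6.73 and 5.74 for FOS, 21.1, 14.8 and 11.8 for FOSB, and 17.8, 16.3 and 12.4 for FOSL2. For JUN it was 14.6, 14.8 and 12.5, for JUND 7.21, 13.0 and 5.06, and for ATF3 17.4, 15.3 and 13.4. The JUND region was called as 1 peak of 8199 bp in Hs578T replicate 1 and as separate peaks in the other 2 lists, where the strongest of them, with 21.2 in MDA-MB-231 replicate 2 and 15.4 in Hs578T replicate 2, did not hold the window. The stretch of 32579 bp that the FOSL1 peak covered in all 3 lists held 10 TGANTCA matches, of which 3 lay within the gene. By density the FOSL1 peak held few, 0.303, 0.297 and 0.306 matches per kb, against 0.565, 0.555 and 0.564 per kb over all peaks. The match within the gene that is not shown above, TGACTCA, was centred 2 bp after the FOSL1 start.

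Across all peaks within 100 kb of these genes, 60 of 111 held TGANTCA in MDA-MB-231 replicate 2 (54.1%, 95% Wilson interval 44.8% to 63.0%), 59 of 110 in Hs578T replicate 1 (53.6%, 44.4% to 62.7%) and 56 of 106 in Hs578T replicate 2 (52.8%, 43.4% to 62.1%). Of all peaks in the same lists 56.6%, 57.0% and 56.0% did, values inside those intervals, which cover counting error only. Distal peaks of the genes held it in 63.8%, 62.1% and 60.3% of cases, against 63.9%, 63.1% and 62.3% of all distal peaks. By density, peaks around the genes held fewer matches, 0.440, 0.410 and 0.427 per kb against 0.565, 0.555 and 0.564 per kb over all peaks, and their distal peaks 0.652, 0.589 and 0.603 per kb against 0.711, 0.689 and 0.696 per kb over all distal peaks. The density was lower around the genes in all 3 large lists, while the share of peaks with a match was within counting error of that of all peaks.

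The genes differed among themselves. Peaks around JUN other than its promoter peak held TGANTCA in 8 of 9, 9 of 10 and 10 of 10 cases, at 0.788, 0.792 and 0.834 matches per kb. Those around ATF3 had 1.01, 0.998 and 1.13 matches per kb, and those around BATF3, many of them the same peaks, 0.941, 0.802 and 0.845. JUNB was at the low end with 3 of 11, 2 of 9 and 1 of 10 peaks and 0.294, 0.265 and 0.270 matches per kb, and FOSL1 had 0.216, 0.144 and 0.195. JUN, ATF3 and BATF3 were above the density of all peaks in every large list and the other 7 genes below it. The density of all peaks includes promoter peaks, whereas the value of each gene leaves out its own, so the 2 sets differ. Promoter peaks of FOS, JUND, ATF3, BATF and BATF3 held no TGANTCA match in any list, and those of FOSL1 held 10, of FOSL2 3, of JUN 2, 1 and 1, of JUNB 1 and of FOSB 1, 1 and 0. The wide promoter peaks of FOSL1 and FOSL2 held 0.297 to 0.306 and 0.192 to 0.218 matches per kb, below the density of all peaks.

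**Figure D5:**
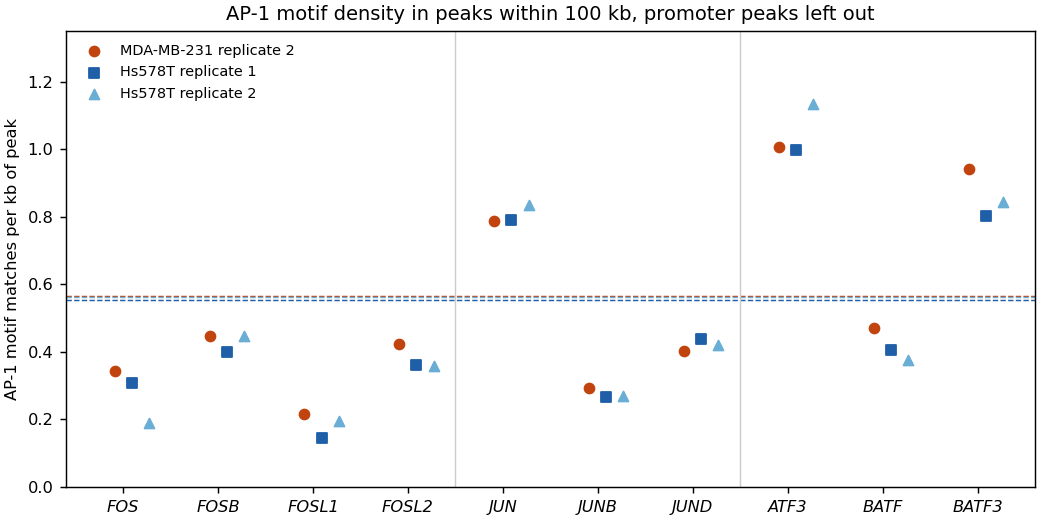
TGANTCA matches per kb of peak in peaks within 100 kb of each AP-1 subunit gene, its own promoter peak left out, one symbol per large list. Dashed lines give the density over all peaks of each list, promoter peaks included (0.555 to 0.565 per kb). JUN, ATF3 and BATF3 lie above the lines, and the other genes below.

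Genes that act with AP-1 were read from lists of textbook roles. Of 4 further bZIP partners, 3 had a promoter peak in all 3 large lists, and BATF2 had one in Hs578T replicate 1 alone. ATF2 and ATF7, which pair with JUN proteins, had mean percentiles of fold enrichment of 84.3 and 60.6 among promoter peaks. JDP2, a repressor that lies between FOS and BATF on chromosome 14, was weak like BATF, with fold enrichment of 4.08, 3.54 and 2.76. Of 14 kinases and phosphatases of the JNK and ERK routes, which switch AP-1 on and off, 13 were marked in all 3 large lists and MAPK10, the JNK gene of neurons, in none. The highest were the phosphatase genes DUSP6, whose product removes phosphate from ERK, and DUSP1, at mean percentiles 96.6 and 89.9.

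Of 8 further immediate-early genes and factors of the serum response, 8 were marked in all 3 large lists, led by IER3 at a mean percentile of 97.2 and EGR1 at 90.6. Among 14 known AP-1 target genes, 11 were marked in all 3. PLAU, the urokinase gene, was highest at a mean percentile of 95.9. The collagenase and stromelysin genes MMP1 and MMP3, classic AP-1 targets, and MMP9 had no promoter peak in any list. These counts stand beside the 55.6% of all protein-coding genes marked in all 3 lists, and the lists were chosen with results of these data known.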

How the data were processed

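H3K27ac ChIP-seq peak lists of 4 libraries, 2 replicates of each of 2 cell lines, were used, with groups and replicate numbers from the sample titles. The authors made these lists library by library, with Trimmomatic for trimming, Bowtie2 for mapping to hg38, MACS2 with subtraction of input for peak calling, and bedtools to drop blacklisted regions. Versions and settings are not given in the sources used here, and the 9 columns of the files are those of MACS2 broad peaks. Each deposited peak carries a score (10 times the −log10 q-value without decimals), a fold enrichment (a ratio over local background), and −log10 p and q values, all per library and all made by the authors. Reads and depth were not used here, so a weak region may be called in 1 list only.

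Names and ends of sequences were checked against hg38. Genes came from GENCODE release 44. A promoter peak was one that lay, at least in part, within 1 kb of the canonical start, and the one with the highest fold enrichment was kept. Percentiles count values below a gene's own within the list, with ties counted at their middle. Distances run from the start to the nearer edge of a peak, and those of sequence windows to the middle of TGANTCA. Motifs were searched in hg38 and in the RefSeq promoter table. All 10 members were named, together with genes whose start lay under a member's promoter peak, and from each list of related genes the unmarked ones and the 2 highest by mean percentile. A gene that this rule names is not reported here. Other genes named beside a peak are those annotated at it. BATF2 and JDP2 fall outside this rule and were named after their values were seen. Members and gene lists were chosen with earlier results of these data known. No test was made. Python 3.11.15, scipy 1.17.1 and samtools 1.23.1 were used, and overlap and coverage functions were tested on simulated peaks.

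Alternatives were other windows and start sites, the strongest 50% of each list, q-values of at most 0.01, ranking by width or among all peaks, distances of 50 and 250 kb, each peak counted for its nearest member, the central 500 bp or distal peaks for motifs, and leaving out each replicate.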

Additional observations from a re-analysis of the deposited data

How the results depend on the processing

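The number of members with a promoter peak was 5 in MDA-MB-231 and 9.5 in Hs578T as means of 2 lists. With all lists kept it was lowest with the strongest 50% of peaks, 4 and 8, and it moved by over 1.5 times only when an MDA-MB-231 replicate was left out (0 to 10, against 9 to 10 in Hs578T). Every MDA-MB-231 value rests on replicate 2, since replicate 1 gave none or 0. The median percentile of promoter fold enrichment in MDA-MB-231, 86.4, became 88.1 when ranked by width, 92.1 among all peaks and 86.4 with a window of 2 kb, and no value could be had without replicate 2. In Hs578T, 87.0 ± 1.01 (SD, n = 2) became 91.2 among all peaks. Median covered bases in Hs578T, 26012 ± 2159 (SD, n = 2), became 16609 within 50 kb, 57511 within 250 kb and 20852 with the strongest 50% of peaks, and 0 to 26919 in MDA-MB-231 when a replicate was left out. Within 50 kb the Hs578T medians were 34616 bp for FOS, 19994.5 bp for JUN, and 6343 bp for ATF and BATF genes. Within 100 kb, the Hs578T median of ATF and BATF genes, 12736 ± 402 bp (SD, n = 2), became 11006.5 bp when each peak was counted for its nearest member. The percentage of peaks with TGANTCA, 54.1 in MDA-MB-231 and 53.2 ± 0.570 (SD, n = 2) in Hs578T, was 31.5 and 30.1 in the central 500 bp of peaks, and 63.8 and 61.2 in distal peaks. The shifts with distance and with the central 500 bp go with the shorter or longer stretch taken, and the cause of the others was not tested. No paired analysis was possible because the values come from no test. Depth is unknown, which limits statements on weak peaks such as those of BATF and BATF3.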
